A study of Mus musculus with 18 samples.

Results

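The genes described here encode 4 families of guidance cues and their receptors: the Eph receptors with their ephrin ligands, and the semaphorins with their plexin and neuropilin receptors. They were found by symbol in a table of 41325 gene entries, which held 53 of them: 9 class A and 5 class B Eph receptors, 5 ephrin-A and 3 ephrin-B ligands, 20 semaphorins of classes 3 to 7, 9 plexins and 2 neuropilins. RNA was sequenced from mural granulosa cells, which line the follicle wall, and from cumulus cells, which enclose the oocyte, in 18 libraries, 3 for each cell type at 0, 4 and 12 h after human chorionic gonadotropin (hCG), the hormone that triggers ovulation. All groups came from ovaries of mice labelled WT and given hCG, with the 0 h groups as the baseline. Strain, age and any hormone given before hCG are not stated in the sources used here.

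Ephrins are bound to the membrane, so they meet Eph receptors where cells touch, and both partners can signal. Ephrin-A ligands are held by a lipid anchor and ephrin-B ligands span the membrane. Semaphorins signal through plexins. Those of class 3 are secreted and mostly need a neuropilin as coreceptor, those of classes 4 to 6 span the membrane, and Sema7a is held by a lipid anchor. Neuropilins also bind vascular endothelial growth factor (VEGF). These families are best known for steering axons and blood vessels, and in epithelia and in the ovary for regulating adhesion and the actin cytoskeleton.

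The libraries held 32211630 to 47919446 unique gene counts. Levels are given in CPM, the usual scale of counts relative to the library total, with TMM scaling of the totals (trimmed mean of M). In a single library 3 counts, as many as an observed 0 allows, were worth 0.0585 to 0.0999 CPM, a floor that covers counting error only. Libraries were grouped by title: of the 9 titles naming cumulus cells, 8 carried the mural cell type in another field and 1 carried none. The summed level of 5 mural-enriched genes followed the titles, at 2070 to 5880 CPM in mural and 86 to 391 CPM in cumulus libraries. That of 7 cumulus-enriched genes followed them at 0 h alone, where it was 1090 to 1190 CPM in mural and 1390 to 1660 CPM in cumulus libraries. The cell types overlapped at 4 h, and at 12 h cumulus libraries held less (254 to 277 against 468 to 670 CPM). A pair of cumulus libraries stood apart, replicate 1 of 0 h by its share of mitochondrial counts (12.8%) and replicate 3 of 4 h by its oocyte marker sum (7440 CPM), and counts resting on them are also given without both. Nothing in the labels says that the libraries of a group came from separate animals, so the p-values speak only for the spread among these libraries, and part of that spread may be technical. In bulk RNA, fewer cells of a type and less RNA per cell cannot be told apart.

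The 53 genes together took 0.585 to 0.615% of all counts in mural cells at 0 h, 0.404 to 0.412% at 4 h and 0.299 to 0.324% at 12 h. In cumulus cells the share was 0.424 to 0.462% at 0 h, 0.256 to 0.303% at 4 h and 0.275 to 0.282% at 12 h. The libraries of 0 h lay above those of 4 and 12 h in both cell types, with no overlap. Such a share follows the most abundant genes and is no measure of the typical one. In cumulus cells at 4 h Sema7a went from a mean of 1530 to 114 CPM, while the median log2 change of the genes tested was 0.76. Each of the 53 was found once in GENCODE M21 (GRCm38), as a protein-coding gene. Of the 53, 52 passed the filter on low counts. Plxnb3, a plexin gene, was not tested, with a mean of 0.252 CPM in cumulus cells at 4 h and at most 0.112 CPM in the other groups.

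A gene is called where edgeR's quasi-likelihood test gave a Benjamini-Hochberg adjusted p under 0.05 over the 19941 genes tested. In mural cells at 4 h against 0 h, 16 guidance genes were higher and 15 lower, against 45.1% of all genes called in either direction, and 34 of 52 did not overlap between the times, against 61.7%. At 12 h against 0 h, 10 were higher and 17 lower, against a background of 40.7%. At 12 h against 4 h, 9 were higher and 22 lower, against 34.5%. The median log2 change of the 52 genes was 0.15, -0.25 and -0.57 in these comparisons, beside -0.06, -0.05 and 0.01 over all genes tested. Scaling by library totals in place of TMM gave 14 higher and 16 lower at 4 h and 9 higher and 22 lower at 12 h. For 12 h against 4 h it gave 11 and 20.

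In cumulus cells at 4 h against 0 h, 28 guidance genes were higher and 10 lower, against a background of 47.8%. Without the libraries that stood apart, 22 were higher and 10 lower. In a fit of the compared libraries alone 13 of the calls at 4 h were lost. Among the higher genes these were Plxna2, Efna3, Efna4, Ephb2, Ephb3, Sema3d, Plxna4, Epha3 and Epha6. Among the lower genes they were Epha1, Efnb3, Plxnb2 and Sema4g. At 12 h against 0 h, 19 were higher and 17 lower, against 64.2%, and without those libraries 20 and 18. At 12 h against 4 h, 13 were higher and 21 lower, against 60.5%, and without them 14 and 22. Of 52 genes, 38 did not overlap between 12 and 0 h, against 69.3% of all genes, and 33 between 12 and 4 h, against 61.9%. The share of guidance genes called was 73.1% at 4 h, 69.2% at 12 h and 65.4% at 12 h against 4 h, so at 12 h it was close to that of all genes. The medians were 0.76, 0.09 and -0.28, beside 0.13, -0.09 and -0.04 over all genes. Library totals gave 22 higher and 12 lower at 4 h and 16 higher and 20 lower at 12 h. For 12 h against 4 h they gave 13 and 23. In mural cells at 4 h the all-gene median became -0.38 in place of -0.06. Comparisons of one cell type share libraries, so their counts are not independent.

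**Figure D1:**
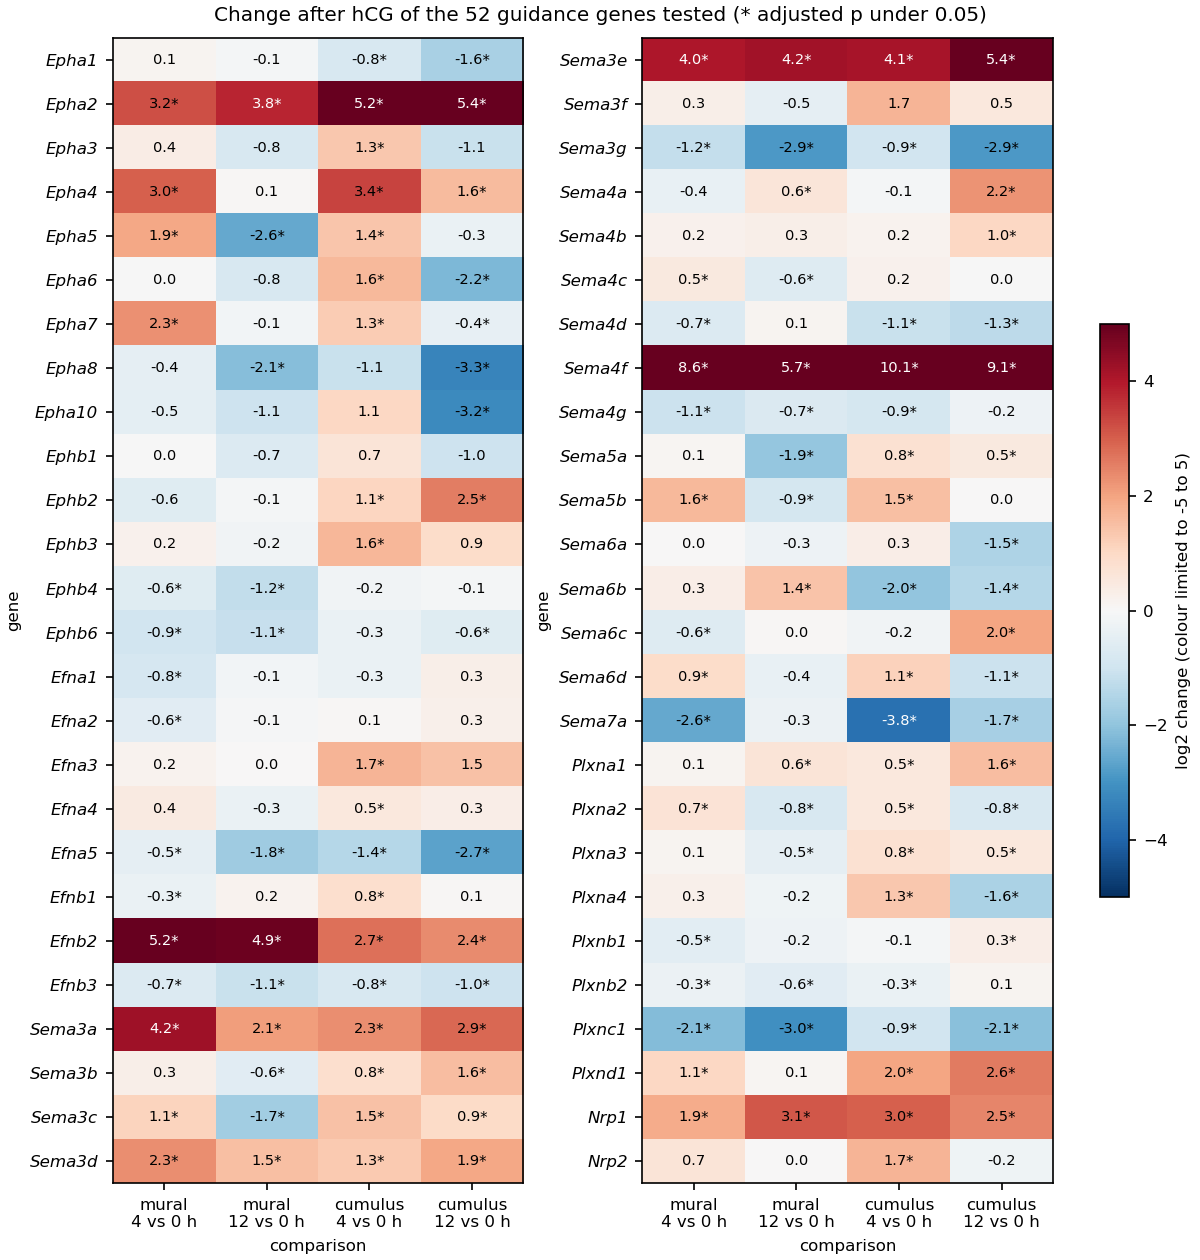
Log2 change of the 52 tested guidance genes in mural and cumulus cells at 4 and 12 h against 0 h, with an asterisk where the adjusted p was under 0.05. Sema4f was the strongest riser in each column (8.63, 5.72, 10.12 and 9.12), and Efnb2, Epha2, Sema3a, Sema3d, Sema3e and Nrp1 were also higher in every column.

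In each of these 4 comparisons 7 genes were called higher: Sema4f, Sema3e, Sema3a, Sema3d, Efnb2, Epha2 and Nrp1. Another 4 were called lower in each, Plxnc1, Sema3g, Efna5 and Efnb3. The call of Efnb3 in cumulus cells at 4 h (-0.79, adjusted p = 0.00415) was lost in a fit of the compared libraries alone (-0.84 ± 0.3, 0.0692). The 2 times of a cell type share their 0 h libraries.

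Among the semaphorins, Sema4f, a membrane-spanning class 4 member described mostly in the nervous system, moved furthest. The gene spans 82911885 to 82939769 on chromosome 6 (GRCm38, minus strand). Its level in mural cells was 0.234, 0.101 and 0.197 CPM at 0 h, 75.7, 73 and 71.8 CPM at 4 h and 9.24, 10.5 and 9.47 CPM at 12 h. In cumulus cells it was 0.0273, 0.16 and 0 CPM at 0 h, 94.7, 82.4 and 62.5 CPM at 4 h and 39.5, 40.8 and 40 CPM at 12 h. The gene was thus close to the floor of detection before hCG in both cell types and peaked at 4 h, and no 2 times overlapped in either cell type. The log2 rise at 4 h was 8.63 ± 0.32 (SE, adjusted p = 1.27e-12) in mural and 10.12 ± 0.36 (1.26e-12) in cumulus cells, n = 3 libraries per group here and below. From 4 to 12 h it fell by 2.91 ± 0.22 in mural cells (1.67e-08) but by 1 ± 0.21 in cumulus cells (0.00047), so that at 12 h cumulus cells held more (2.04 ± 0.21, 9.95e-07). Per exon length it went from rank 52 of the 53 genes in mural cells at 0 h to a level of 13.9 CPM per kb at 4 h.

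Sema3e, a secreted semaphorin that binds plexin D1 without a neuropilin, was at 1.52, 1.03 and 1.94 CPM in mural cells at 0 h, 23.3, 24.6 and 26.2 CPM at 4 h and 24.4, 32.2 and 27 CPM at 12 h. Cumulus cells held 1.58, 3.28 and 1.91 CPM at 0 h, 44.3, 44 and 31.2 CPM at 4 h and 102, 92.9 and 90.4 CPM at 12 h. Both later groups lay above 0 h, and in cumulus cells 12 h also lay above 4 h. The log2 changes at 12 h were 4.2 ± 0.25 in mural (adjusted p = 3.64e-10) and 5.38 ± 0.26 in cumulus cells (8.66e-12).

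Its receptor gene Plxnd1 rose in cumulus cells too, from 9.34, 9.82 and 8.99 CPM at 0 h to 45.1, 38.6 and 26.1 CPM at 4 h and 57.1, 57.9 and 56.3 CPM at 12 h. The 3 times did not overlap there, and the log2 change at 12 h was 2.61 ± 0.16 (adjusted p = 2.4e-10). In mural cells the level was 33.5, 33.7 and 46 CPM at 0 h, 81.7, 75 and 78 CPM at 4 h and 38.5, 38.8 and 44.3 CPM at 12 h. It rose by 1.05 ± 0.16 at 4 h (2.33e-05) and its libraries of 12 h lay within the range of 0 h, with a change of 0.1 ± 0.15 (0.645).

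Sema3a, the axon-repelling semaphorin that acts through Nrp1 and class A plexins, was at 2.83, 3.2 and 2.69 CPM in mural cells at 0 h, 57.3, 48.6 and 57.4 CPM at 4 h and 10.1, 13.4 and 13.8 CPM at 12 h. In cumulus cells it was at 6.28, 4.58 and 2.87 CPM, then 25, 23.9 and 19.9 CPM, then 32.9, 36 and 31.9 CPM. Mural cells peaked at 4 h and cumulus cells were highest at 12 h. The log2 change was 4.23 ± 0.22 at 4 h (6.62e-11) and 2.1 ± 0.21 at 12 h (2.28e-07) in mural cells, and 2.33 ± 0.21 (4.92e-08) and 2.88 ± 0.21 (1.78e-09) in cumulus cells.

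The coreceptor Nrp1 rose in both cell types. Mural cells held 3.73, 4.84 and 8.3 CPM at 0 h, 19.5, 20.8 and 21 CPM at 4 h and 48.1, 45.8 and 50.8 CPM at 12 h. Cumulus cells held 0.901, 3.86 and 3.95 CPM at 0 h, 25.8, 19.7 and 23.7 CPM at 4 h and 18.5, 14.3 and 15.5 CPM at 12 h. The later libraries lay above those of 0 h in both cell types. The log2 rise was 1.86 ± 0.35 at 4 h (adjusted p = 0.000296) and 3.1 ± 0.36 at 12 h (1.87e-06) in mural cells, and 2.97 ± 0.37 (3.22e-06) and 2.45 ± 0.36 (1.39e-05) in cumulus cells. In mural cells 12 h also lay above 4 h (1.24 ± 0.34, adjusted p = 0.00813). Nrp2, the other neuropilin, was called against 0 h in cumulus cells at 4 h (1.69 ± 0.38, 0.00124), with 5.3, 1.5 and 1.72 CPM at 0 h and 8.64, 8.68 and 9.98 CPM at 4 h.

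Nrp1 is also an endothelial gene. Of 10 endothelial markers none was called in mural cells at 4 h and 1 at 12 h, Cdh5, which went from 17.6 to 127 CPM. Their sum was 40.6 to 62.7 CPM in mural libraries of 0 h, 36.3 to 48.5 CPM at 4 h and 132 to 164 CPM at 12 h. In cumulus libraries it was 19.5 to 33.3, 31.5 to 77.5 and 157 to 180 CPM. At 12 h most of that sum was Cdh5, which went from 4.01 to 164 CPM in cumulus cells, while 6 of the 10 markers were called lower there and 2 higher, with a median log2 change of -1.9. The part of endothelial RNA in the changes of Nrp1, Plxnd1 and Efnb2 was not tested.

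Of the other class 3 semaphorins, Sema3d rose in each comparison with 0 h, by 2.33 ± 0.32 at 4 h in mural cells (adjusted p = 1.25e-05). It went from 2.52, 7.08 and 7.34 CPM to 28.8, 25.3 and 31 CPM there. In cumulus cells its rise at 4 h, 1.3 ± 0.34 (0.00416), was not called without the libraries that stood apart (0.94 ± 0.42, 0.0801) or in a fit of the compared libraries alone (1.24 ± 0.41, 0.0563). Sema3b rose in cumulus cells, from 18.2, 15.1 and 11.4 CPM at 0 h to 42.4, 44.7 and 44.9 CPM at 12 h (1.56 ± 0.14, 3.56e-08), and fell in mural cells by 0.56 ± 0.14 at 12 h (0.00309).

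Sema3c, which signals through neuropilins and plexins in heart and vessel development, took opposite courses by 12 h. Mural cells held 238, 220 and 205 CPM at 0 h, 426, 550 and 449 CPM at 4 h and 65.3, 69.4 and 63.4 CPM at 12 h. Cumulus cells held 71.4, 60.7 and 62.2 CPM at 0 h, 200, 205 and 128 CPM at 4 h and 126, 133 and 117 CPM at 12 h. Both rose at 4 h, but at 12 h mural cells were below their start (-1.74 ± 0.15, adjusted p = 3.21e-08) and cumulus cells above it (0.95 ± 0.15, 2.16e-05). At 4 h Sema3c led all guidance genes per exon length in mural cells, at 66.5 ± 9.26 CPM per kb.

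Sema3g, a secreted ligand of neuropilin 2, fell at each time in both cell types. It went from 541, 462 and 410 CPM to 191, 227 and 198 CPM at 4 h and 76.9, 45.3 and 70.1 CPM at 12 h in mural cells. In cumulus cells the levels were 707, 501 and 508, then 298, 377 and 212, then 80.1, 74.7 and 79.3 CPM. No 2 times overlapped in either cell type, and the log2 changes at 12 h were -2.88 ± 0.22 (adjusted p = 7.69e-09) and -2.87 ± 0.22 (3.45e-09), with a difference between cell types of 0.01 ± 0.29 (0.995).

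Sema7a, the lipid-anchored semaphorin that binds plexin C1 and integrins, had the highest level per exon length of the 53 genes at 0 and 12 h in both cell types. It spans 57940112 to 57962865 on chromosome 9 (plus strand). Mural libraries held 875, 792 and 798 CPM at 0 h, 143, 128 and 145 CPM at 4 h and 598, 705 and 687 CPM at 12 h. Cumulus libraries held 1860, 1360 and 1380 CPM, then 105, 159 and 77.3 CPM, then 486, 495 and 473 CPM. The trough at 4 h lay clear of the other times in both. The log2 fall at 4 h was -2.57 ± 0.2 in mural (adjusted p = 7.28e-09) and -3.75 ± 0.21 in cumulus cells (1.08e-10). From 4 to 12 h the level rose again, by 2.26 ± 0.19 in mural (6.12e-08) and 2.09 ± 0.19 in cumulus cells (7.05e-08). Against 0 h, mural cells at 12 h differed by -0.31 ± 0.18 (0.206) and cumulus cells by -1.66 ± 0.19 (5.76e-07). The mural difference was called with library totals (-0.49 ± 0.16, 0.0233) and in a fit of the compared libraries alone (-0.31 ± 0.09, 0.00824).

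Plxnc1, the plexin that receives Sema7a, fell without such a return. It spans 94790866 to 94944835 on chromosome 10 (minus strand). Mural cells held 1030, 915 and 901 CPM at 0 h, 211, 242 and 189 CPM at 4 h and 120, 103 and 121 CPM at 12 h. Cumulus cells held 269, 195 and 207 CPM, then 122, 133 and 95.4 CPM, then 59.2, 43.9 and 53.9 CPM. No 2 times overlapped in either cell type. The log2 change at 12 h was -3.05 ± 0.16 in mural (adjusted p = 5.49e-11) and -2.1 ± 0.16 in cumulus cells (2.16e-09). In mural cells Plxnc1 went from the second rank per exon length at 0 h, 114 ± 8.68 CPM per kb, to 13.8 ± 1.17 at 12 h.

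**Figure D2:**
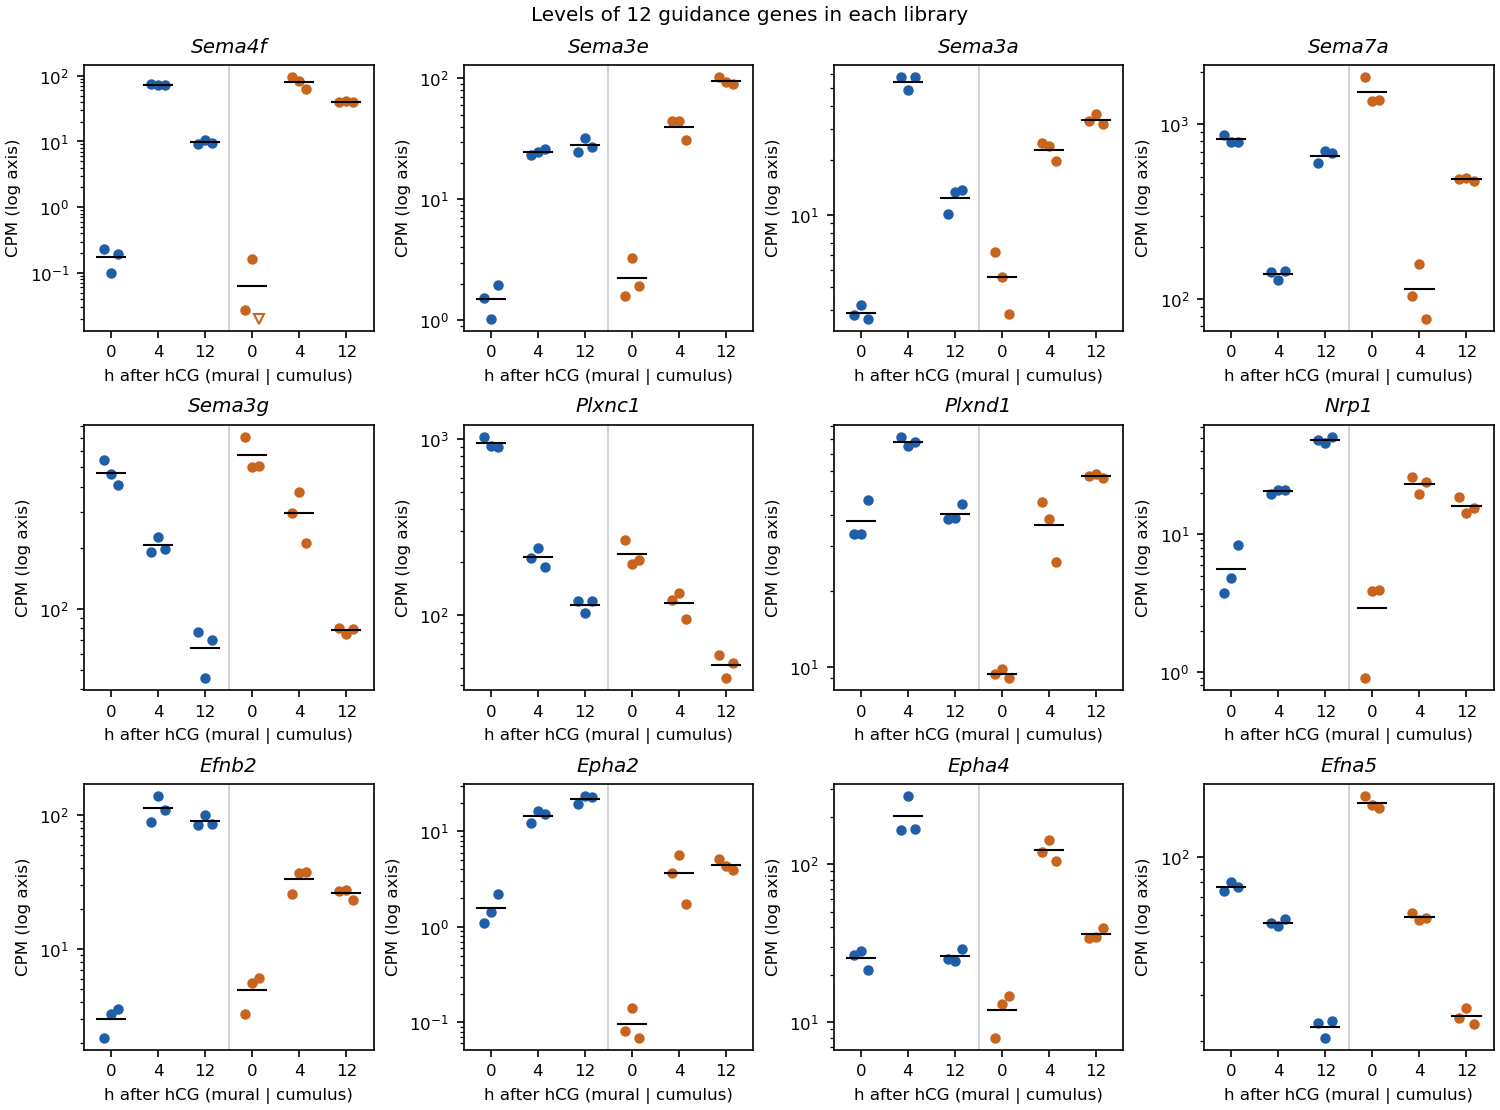
Level of 12 guidance genes in each of the 18 libraries in CPM on a log axis, mural in blue and cumulus in orange, with the group mean as a bar and a library with no count as an open triangle at the axis foot. Sema7a dipped at 4 h to 138 CPM in mural and 114 CPM in cumulus cells on average, while Plxnc1 and Sema3g kept falling to 12 h.

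The other membrane-bound semaphorins changed less. Sema4d, the ligand of plexin B1 known from immune cells, fell in cumulus cells from 77.9, 61.6 and 60.6 CPM to 24.6, 26.5 and 40.7 CPM at 4 h (-1.13 ± 0.17, adjusted p = 3.12e-05) and 23.4, 27.5 and 29.3 CPM at 12 h. Sema4a and Sema6c were not called at 4 h against 0 h in cumulus cells and rose later. Sema4a went from 1.21, 2.16 and 2.14 CPM at 4 h to 8.87, 8.06 and 10.9 CPM at 12 h (2.34 ± 0.24, 2.07e-07). Sema6c went from 8.48, 6.62 and 8.51 CPM to 31.8, 36.9 and 34.9 CPM over the same hours (2.13 ± 0.18, 2.24e-08). The 12 h libraries lay above those of 4 h for both genes.

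Sema6b, a class 6 member known as a ligand of plexin A4, moved apart in the 2 cell types. Mural cells held 3.26, 4.26 and 3.82 CPM at 0 h, 5.46, 3.65 and 5.05 CPM at 4 h and 11.3, 7.65 and 11.8 CPM at 12 h, a log2 rise of 1.44 ± 0.29 at 12 h (adjusted p = 0.000656). Cumulus cells held 11, 6.24 and 8.23 CPM, then 2.47, 2.37 and 1.56 CPM, then 3.93, 3.69 and 1.93 CPM, a change of -1.99 ± 0.3 at 4 h (2.99e-05). Sema4g fell in mural cells from 13.7, 14.3 and 18.3 CPM to 8.56, 7.33 and 5.82 CPM at 4 h (-1.09 ± 0.28, 0.00358).

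Sema5a, a large semaphorin with thrombospondin repeats, was among the 5 highest guidance genes per exon length in mural cells at 0 h. It was at 949, 816 and 864 CPM there at 0 h, 891, 1050 and 849 CPM at 4 h and 254, 202 and 237 CPM at 12 h. Cumulus cells held 386, 326 and 274 CPM, then 592, 649 and 434 CPM, then 460, 453 and 460 CPM. Mural cells fell at 12 h (-1.92 ± 0.15, adjusted p = 1.36e-08) below every cumulus library, and cumulus cells rose (0.48 ± 0.15, 0.00993). That rise was not called with library totals (0.23 ± 0.12, 0.1) or without cumulus 0 h replicate 3 (0.34 ± 0.15, 0.0647). Sema5b, its close relative, was higher at 4 h in both cell types, by 1.62 ± 0.32 (0.000406) in mural and 1.51 ± 0.33 (0.000986) in cumulus cells.

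Plexins other than Plxnc1 and Plxnd1 changed by less than 1 log2 unit in mural cells in both comparisons with 0 h. Plxna1, a common partner of Nrp1, rose at 12 h by 0.63 ± 0.09 in mural (adjusted p = 2.01e-05) and 1.56 ± 0.09 in cumulus cells (1.03e-10), from 172, 155 and 163 to 503, 478 and 467 CPM in the latter. Plxnb2, a receptor of Sema4c, ranked 2 to 4 per exon length in every group, between 41.1 and 62.8 CPM per kb.

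**Figure D3:**
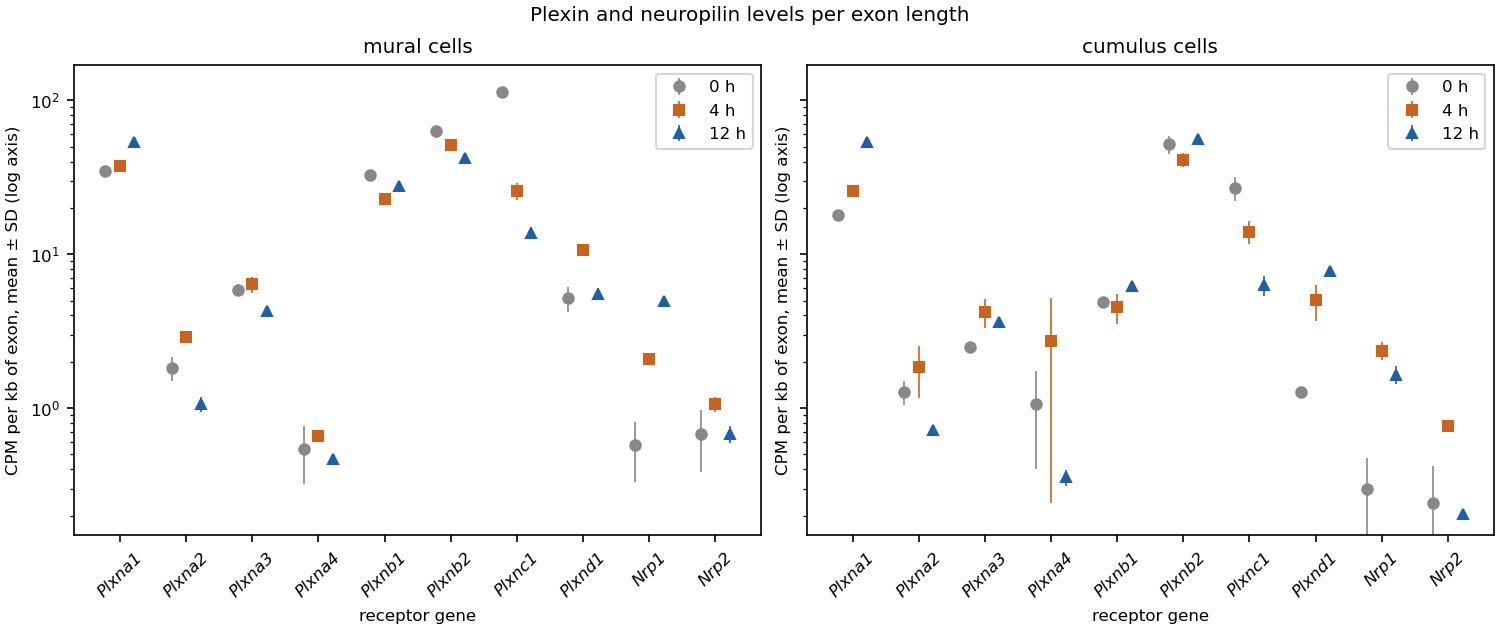
Mean level ± SD (n = 3 libraries) of 8 plexins and 2 neuropilins in CPM per kb of exon, on a log axis, at 0, 4 and 12 h in mural and cumulus cells. Plxna1, Plxnb2 and, in mural cells, Plxnb1 stayed high at each time, while mural Plxnc1 went from 114 to 13.8 CPM per kb and Nrp1 from 0.574 to 4.94. The lower error bars of cumulus Nrp1 and Nrp2 at 0 h run past the foot of the axis.

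Among the ephrins, Efnb2, the membrane-spanning ligand that marks arteries and pairs with Ephb4, rose most. It spans 8617434 to 8661242 on chromosome 8 (minus strand). Mural cells held 2.17, 3.25 and 3.56 CPM at 0 h, 89, 138 and 109 CPM at 4 h and 84.3, 100 and 85.6 CPM at 12 h. Cumulus cells held 3.25, 5.6 and 6.02 CPM at 0 h, 25.7, 36.6 and 37.4 CPM at 4 h and 27.3, 27.5 and 23.1 CPM at 12 h. The later libraries lay above those of 0 h in both, and from 4 h on every mural library lay above every cumulus library. The log2 rise at 4 h was 5.23 ± 0.26 in mural (adjusted p = 3.64e-11) and 2.74 ± 0.23 in cumulus cells (3.09e-08). Efnb3 fell in both, by 1.1 ± 0.21 (0.000283) and 1.04 ± 0.21 (0.000292) at 12 h, and Efnb1 rose in cumulus cells at 4 h by 0.83 ± 0.1 (2.54e-06).

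Ephb4, the receptor of ephrin-B2, went the other way in mural cells: 101, 85.7 and 94.9 CPM at 0 h, 65.5, 55.5 and 64.1 CPM at 4 h and 40.3, 35.8 and 44.1 CPM at 12 h (-1.23 ± 0.11, adjusted p = 9.76e-08). In cumulus cells it lay between 41.2 and 58 CPM in every library, and its change of -0.1 ± 0.11 at 12 h was not called (0.431), but with library totals it was -0.36 ± 0.12 and called (0.0183). Ephb6, which lacks kinase activity, fell in mural cells by 1.15 ± 0.18 at 12 h (3.67e-05). Ephb2 rose in cumulus cells from 0.273, 0.44 and 0.712 CPM to 2.72, 2.67 and 3.04 CPM at 12 h (2.55 ± 0.4, 2.64e-05).

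Efna5, an ephrin-A ligand with a reported role in ovarian follicles, fell stepwise. Cumulus cells held 169, 157 and 152 CPM at 0 h, 61, 57.3 and 58.4 CPM at 4 h and 24.5, 26.8 and 23.3 CPM at 12 h. Mural cells held 73.8, 79.9 and 76.4 CPM, then 55.8, 54.8 and 57.9 CPM, then 23.5, 20.6 and 23.8 CPM. No 2 times overlapped in either cell type, and the cell types did not overlap at 0 h but did at 12 h. The log2 change at 12 h was -2.68 ± 0.09 in cumulus (adjusted p = 9.15e-14) and -1.76 ± 0.09 in mural cells (2.04e-11). The other ephrin-A ligands changed by -0.84 to 0.43 in mural cells at 4 h, where Efna1 and Efna2 were called lower. Efna3 shares exon bases with the opposite-strand gene Gm15998, whose counts were 44.7% of its own, and the strand setting of the counting is not given in the sources used here, so its values are uncertain.

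Among the class A Eph receptors, the best known ephrin-A receptors in epithelia and nerve, Epha2 rose most, in cumulus cells from close to the floor. In cumulus cells it was at 0.0819, 0.14 and 0.0689 CPM at 0 h, 3.64, 5.71 and 1.72 CPM at 4 h and 5.11, 4.34 and 3.91 CPM at 12 h. Mural libraries held 1.09, 1.44 and 2.21 CPM, then 12.3, 16.2 and 15.3 CPM, then 19.4, 23.3 and 23.2 CPM. The later libraries lay above those of 0 h in both, and mural cells held more at each time. The log2 rise at 4 h was 5.17 ± 0.45 in cumulus (adjusted p = 3.49e-08) and 3.21 ± 0.35 in mural cells (5.99e-07), and at 12 h 5.44 ± 0.45 (8.56e-09) and 3.8 ± 0.35 (8.76e-08).

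Epha4, Epha5 and Epha7, receptors studied mainly in the nervous system, peaked at 4 h. Mural cells held 26.8, 28.1 and 21.3 CPM of Epha4 at 0 h, 165, 269 and 168 CPM at 4 h and 25.1, 24.5 and 29.2 CPM at 12 h. Cumulus cells held 7.97, 13.1 and 14.7 CPM, then 120, 143 and 105 CPM, then 33.9, 34.7 and 39.6 CPM. The peak lay clear of the other times in both, and by 12 h the mural libraries overlapped those of 0 h while the cumulus libraries lay above them. The log2 rise at 4 h was 2.98 ± 0.22 (adjusted p = 5.99e-09) in mural and 3.36 ± 0.23 (1.7e-09) in cumulus cells, and from 4 to 12 h mural cells fell by 2.93 ± 0.22 (1.46e-08).

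Epha5 was at 20.8, 19.1 and 20.6 CPM in mural cells at 0 h, 73, 78.9 and 78.9 CPM at 4 h and 2.81, 3.39 and 3.99 CPM at 12 h. It thus rose (1.93 ± 0.16, adjusted p = 2.9e-08) and then, with a fall of -4.5 ± 0.19 from 4 to 12 h (1.68e-11), ended below its start (-2.57 ± 0.17, 1.26e-09), with no overlap among the times. Cumulus cells held 2.51, 1.74 and 2 CPM at 0 h, 6.6, 4.77 and 4.92 CPM at 4 h and 1.51, 1.96 and 1.43 CPM at 12 h. Epha7 rose at 4 h by 2.28 ± 0.15 in mural (7.04e-10) and 1.26 ± 0.14 in cumulus cells (9.79e-07). Epha8 fell at 12 h, from 3.14, 3.02 and 2.97 to 0.758, 0.533 and 0.797 CPM in mural cells (-2.12 ± 0.47, 0.00133) and from 1.61, 0.96 and 0.873 to 0, 0.235 and 0.106 CPM in cumulus cells (-3.3 ± 0.56, 6.29e-05). In cumulus cells at 12 h Epha8 lay near the floor. Epha1 shares 236 exon bases with the opposite-strand gene Zyx, which is far more abundant, so its called falls in cumulus cells are uncertain.

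The proximal promoters of 4 genes that rose steeply at 4 h are shown. They were chosen with their values known. hCG raises cyclic AMP, whose transcription factors bind the CRE motif TGACGTCA or its core TGACG. The sequences come from RefSeq (GRCm38.p6), run 5′ to 3′ on the gene's strand from 250 bases before to 50 after the start, and have matches to TGACG on either strand in capitals. Sema4f spans chr6:82939720-82940019 (minus strand), Efnb2 chr8:8661193-8661492 (minus), Epha2 chr4:141300971-141301270 (plus) and Epha4 chr1:77515039-77515338 (minus).
Sema4f: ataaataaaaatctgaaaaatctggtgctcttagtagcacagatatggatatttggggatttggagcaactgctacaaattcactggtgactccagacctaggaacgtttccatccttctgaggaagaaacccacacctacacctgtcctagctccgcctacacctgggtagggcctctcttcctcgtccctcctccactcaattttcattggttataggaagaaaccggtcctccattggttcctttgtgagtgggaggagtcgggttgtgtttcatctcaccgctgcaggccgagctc
Efnb2: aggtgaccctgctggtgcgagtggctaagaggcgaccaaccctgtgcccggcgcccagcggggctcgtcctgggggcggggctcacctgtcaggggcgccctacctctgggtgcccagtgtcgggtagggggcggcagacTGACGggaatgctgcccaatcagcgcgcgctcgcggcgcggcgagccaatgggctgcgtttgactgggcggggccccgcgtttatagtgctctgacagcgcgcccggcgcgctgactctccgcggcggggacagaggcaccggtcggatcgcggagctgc
Epha2: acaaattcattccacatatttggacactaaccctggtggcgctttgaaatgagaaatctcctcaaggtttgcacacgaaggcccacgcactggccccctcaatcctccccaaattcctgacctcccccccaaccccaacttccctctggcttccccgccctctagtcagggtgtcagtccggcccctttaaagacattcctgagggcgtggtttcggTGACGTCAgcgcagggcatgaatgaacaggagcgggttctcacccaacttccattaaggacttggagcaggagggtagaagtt
Epha4: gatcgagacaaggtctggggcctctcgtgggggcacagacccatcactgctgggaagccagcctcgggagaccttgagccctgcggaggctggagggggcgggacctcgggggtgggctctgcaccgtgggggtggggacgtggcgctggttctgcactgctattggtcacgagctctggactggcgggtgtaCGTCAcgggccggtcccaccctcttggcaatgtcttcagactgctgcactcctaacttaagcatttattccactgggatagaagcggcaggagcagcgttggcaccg

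Epha2 held the full TGACGTCA, which contains TGACG on both strands, starting 33 bases before its start site. Efnb2 held TGACG at 110 and Epha4 at 57 bases before theirs, and the window of Sema4f held none. RefSeq promoters were matched for 47 of the 53 genes, with 61 windows. TGACG was in 14.8% of these, beside 20.8% of all 32851 mouse promoter windows of 300 bases, and TGACGTCA in 1.64% beside 1.79%. The GC box GGGCGG was in 75.4% beside 35.7%, the AP-1 motif TGANTCA in 4.92% beside 7.81%, the RUNX motif TGTGGT in 13.1% beside 16.8% and the NR5A motif CAAGGTCA in 1.64% beside 1.56%, each on both strands. A match describes letters, not a bound site. Not matched were Plxna1, Plxna4, Sema3b, Sema3f, Sema6a and Efnb3.

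Cumulus and mural cells were next compared at each time. At 0 h, 7 guidance genes were higher and 30 lower in cumulus cells, against 46.8% of all genes called and 25.3% called lower. The counts were 10 and 31 at 4 h, against 54.5% called and 27% lower, and 13 and 19 at 12 h, against 38.5% called and 20.5% lower. Without the libraries that stood apart the counts were 10 and 31 at 0 h and 9 and 32 at 4 h. At 4 h same-numbered libraries deviated weakly together, and a replicate block fitted over all 18 libraries added Sema6a (-0.74, adjusted p = 0.0468), giving 10 and 32. The median log2 difference was -0.91, -0.65 and -0.42, beside -0.03, -0.01 and -0.07 over all genes. Library totals gave 8 higher and 21 lower at 12 h. Of 52 genes, 33, 39 and 41 did not overlap between cell types at 0, 4 and 12 h, against 56.2, 55.7 and 62.2% of all genes.

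Plexins were mostly lower in cumulus cells at 0 h (7 of 8, with 0 higher) and 4 h (7 of 8, with 1 higher). At 12 h 3 of 8 were lower, 2 higher and 3 not called. At 0 and 4 h the lower plexins included Plxna2 and Plxnb2, whose calls were less firm. In a fit of the compared libraries alone both were lost at 0 h (adjusted p = 0.0585 and 0.0801) and at 4 h (0.0913 and 0.0974). Library totals lost Plxna2 at 0 h (0.0645) and both at 4 h (0.0798 and 0.0553). Plxnb1, receptor of Sema4d, was at 339, 303 and 298 CPM in mural cells at 0 h and 51, 43.9 and 45.8 CPM in cumulus cells (-2.74 ± 0.13, adjusted p = 1.01e-10). It was lower in every cumulus library than in every mural one at 4 h (-2.33 ± 0.13, 3.27e-10) and 12 h (-2.15 ± 0.13, 9e-10) too. Its ligand Sema4d was the reverse, at 16.9, 16.3 and 18.6 CPM in mural and 77.9, 61.6 and 60.6 CPM in cumulus cells at 0 h (1.95 ± 0.18, 1.18e-07), and 0.51 ± 0.17 higher in cumulus cells at 12 h (0.0261). The call at 12 h was lost with library totals (0.39 ± 0.18, 0.105) and without any one of mural 12 h replicates 1 or 2 and cumulus 12 h replicates 2 or 3 (0.44 to 0.49, adjusted p 0.0667 to 0.0962). Efna5 (1.05 ± 0.08, 2.54e-08), Sema6b (1.17 ± 0.29, 0.00361) and Sema7a (0.9 ± 0.19, 0.000767) were also higher in cumulus cells at 0 h.

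Sema3f, a secreted ligand of Nrp2, was at 2.65, 2.59 and 5.24 CPM in mural cells at 0 h, while cumulus cells held 0.0546, 0.08 and 0.23 CPM, some of which lie at the floor (-4.8 ± 0.77, adjusted p = 6.91e-05). It stayed lower at 4 h (-3.41 ± 0.69, 0.000514) and 12 h (-3.83 ± 0.74, 0.000547), again with some cumulus values near the floor. Epha5 was lower by 3.28 ± 0.18 at 0 h (4e-10) and 3.82 ± 0.18 at 4 h (6.09e-11), Sema3d by 3.16 ± 0.34 at 4 h (9.2e-07), and Ephb2 by 3.36 ± 0.41 at 0 h (3.55e-06). Epha3 and Sema6a were lower by 2.54 ± 0.5 (0.000625) and 2.27 ± 0.36 (8.08e-05) at 12 h.

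Several lists of markers of other cells also held genes that were lower in cumulus cells. Of 8 theca and interstitial markers, 8 were lower in cumulus cells at 0 and 4 h and 7 at 12 h, with sums of 446 to 557 CPM in mural and 52.9 to 66.9 CPM in cumulus libraries at 0 h. All 5 markers of the ovarian surface epithelium were lower at 0 and 4 h and 4 at 12 h, with sums of 23.8 to 55.5 CPM in mural and 0.184 to 4.38 CPM in cumulus libraries over the 3 times. Of 7 pericyte markers 5 were lower at each time, with 1 higher at 4 h and 1 at 12 h. Of 10 endothelial markers 6, 5 and 5 were lower at 0, 4 and 12 h, with 2 higher at 4 h. The sums of these lists overlapped between the cell types at 12 h. For pericyte markers they were 101 to 108 CPM in mural and 101 to 113 CPM in cumulus libraries. For endothelial markers they were 132 to 164 CPM and 157 to 180 CPM. Of 6 erythroid markers 5, 6 and 6 were lower at 0, 4 and 12 h. Of 4 neutrophil markers tested none was lower at 0 h, 4 were at 4 h and 2 at 12 h. Some also changed with time in mural cells: the erythroid sum was 87.8 to 146 CPM at 0 h, 450 to 700 CPM at 4 h and 380 to 734 CPM at 12 h, and the theca and interstitial sum was 261 to 311 CPM at 4 h and 159 to 176 CPM at 12 h. All 4 neutrophil markers were higher at 4 and 12 h, with sums of 0.195 to 0.677 CPM at 0 h, 2.5 to 6.08 CPM at 4 h and 3.6 to 5.16 CPM at 12 h. The part of these cells in the mural levels and their changes was not tested.

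The change from 0 h was then compared between the cell types. At 4 h the change was more positive in cumulus cells for 8 genes and more negative for 6, against 14% of all genes called, 6.78% more positive and 7.26% more negative. Library totals gave 12 and 6, and leaving out the libraries that stood apart 12 and 9. The more positive count was 2 in a fit of the compared libraries alone, 4 without mural 4 h replicate 1 or 3 or cumulus 4 h replicate 1, and 5 without mural 4 h replicate 2. At 12 h the figures were 22 and 8, against 40.1% called and 20.1% more positive, and 23 and 11 without those libraries. The median difference was 0.39 at 4 h and 0.57 at 12 h, beside 0.07 and -0.05 over all genes.

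Efnb2 rose less in cumulus cells, by 2.49 ± 0.32 at 4 h (adjusted p = 4.91e-05) and 2.53 ± 0.32 at 12 h (9.73e-06). Sema6b differed by -2.31 ± 0.42 (0.00112) and -2.86 ± 0.42 (4.07e-05). Epha2 rose more in cumulus cells at 4 h (1.96 ± 0.57, 0.0277), as did Ephb2 (1.66 ± 0.54, 0.0491), which in mural cells was not called at that time (-0.6 ± 0.36, 0.199) but was without mural 0 h replicate 1 (-0.96 ± 0.35, 0.0403). At 12 h Sema4f (3.4 ± 0.61, 0.000277) and Sema3c (2.69 ± 0.21, 4.37e-08) led the 22 more positive genes, followed by Ephb2 (2.62 ± 0.53, 0.000854) and Plxnd1 (2.5 ± 0.22, 1.74e-07). The value of Sema4f includes a difference at 0 h, near the floor, of -1.36 that was not called (0.0604). Epha2 also lay near the floor in cumulus cells at 0 h. Of the 8 plexins tested 6 were among the 22 and none among the 8. The call of Epha2 at 4 h was lost without any one of mural 0 h replicate 3, mural 4 h replicates 1 or 3 and cumulus 0 h replicates 1 or 3 (1.67 to 2.03, adjusted p 0.0504 to 0.0749). That of Ephb2 was lost without any one of mural 0 h replicates 2 or 3, a mural library of 4 h, cumulus 0 h replicates 1 or 2 and cumulus 4 h replicate 1 (1.22 to 1.8, adjusted p 0.0711 to 0.134).

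**Figure D4:**
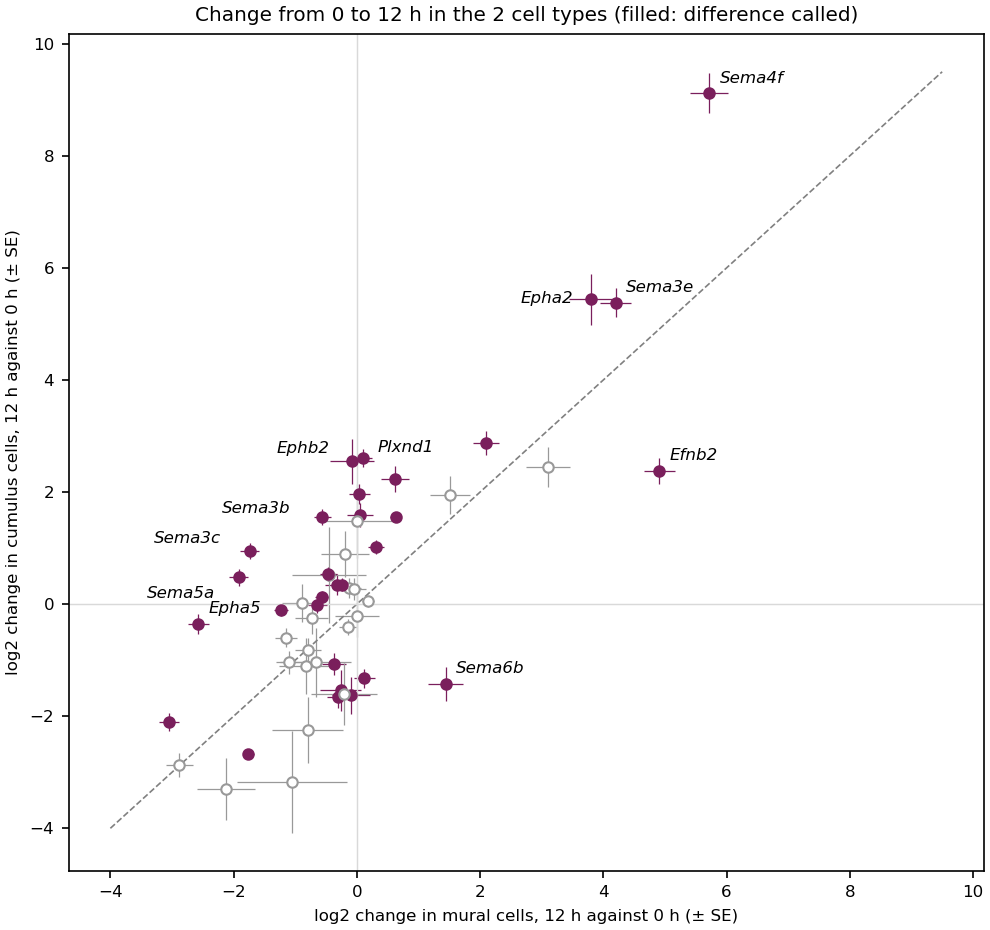
Log2 change from 0 to 12 h in mural cells (x axis) and cumulus cells (y axis) for the 52 genes, with SE bars and the line of equal change. Filled points are the 30 genes whose change differed between the cell types. Sema4f and Sema3c lie above the line by 3.4 and 2.69, with Efnb2 (-2.53) and Sema6b (-2.86) below it.

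Oocyte RNA varied among the cumulus libraries. The summed level of 15 oocyte markers in cumulus cells was 419, 1970 and 2050 CPM at 0 h, 2330, 1190 and 7440 CPM at 4 h and 8.13, 10.9 and 6.1 CPM at 12 h. In mural libraries it was 136 to 637 CPM. Among the cumulus libraries of 0 h the sum was lowest in replicate 1, and among those of 4 h it was highest in replicate 3 and lowest in replicate 2. The same order was found for 8 guidance genes: Plxna4, Epha6, Epha10, Epha3, Sema3f, Sema6a, Plxna2 and Ephb6. That is 15.4% of the 52, below the 18.5% of all genes tested, so the order is not particular to guidance genes. The genes differed in how far they moved: in cumulus cells Ephb6 lay between 41 and 42.4 CPM at 0 h and between 24.5 and 31.5 CPM at 12 h.

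Plxna4, a plexin of class 3 and 6 semaphorins, was at 4.26, 20.8 and 20.3 CPM in cumulus cells at 0 h, 22.2, 14.2 and 78.5 CPM at 4 h and 5.47, 4.31 and 5.2 CPM at 12 h. Replicate 1 of 0 h was low and replicate 3 of 4 h high, as for the oocyte sum. Its rise at 4 h (1.34 ± 0.53, adjusted p = 0.047) was -0.17 ± 0.25 (0.623) without both of these libraries, and was not called without any one of replicates 1, 2 or 3 of 0 h or replicate 3 of 4 h (0.26 to 1.64, adjusted p 0.0706 to 0.724). Epha6, at 1.06, 4.54 and 4.44, then 5.84, 3.55 and 21.7, then 0.857, 0.616 and 0.634 CPM, went from 1.62 ± 0.55 (0.0208) to 0.07 ± 0.31 (0.897), and Epha3 from 1.34 ± 0.47 (0.0247) to 0.21 ± 0.32 (0.639). Without replicate 1 of 0 h alone the changes were 1.2 for Epha6 (0.0761) and 0.94 for Epha3 (0.0957), and without replicate 3 of 4 h alone 0.48 (0.408) and 0.6 (0.263). Epha10, which lacks kinase activity, was at 0.601, 2.2 and 0.758, then 2.09, 0.455 and 4.87, then 0.0887, 0 and 0.291 CPM.

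These genes also stood among the cumulus-high calls at 4 h, Epha10 by 3.22 ± 0.86 (adjusted p = 0.00454), Epha6 by 2.57 ± 0.57 (0.00116) and Plxna4 by 2.05 ± 0.55 (0.00433), and among the largest falls from 4 to 12 h, with log2 changes of -4.22 ± 0.92 for Epha10 (0.00076) and -3.88 ± 0.61 for Epha6 (3.57e-05). At 12 h against 0 h Epha10 fell by 3.17 ± 0.91 (0.00552). The level of Epha10 in cumulus cells at 12 h lay near the floor. Without replicate 3 of 4 h the difference of Plxna4 at 4 h was 1.04 and was not called (0.094). The part of oocyte RNA in these changes was not tested.

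**Figure D5:**
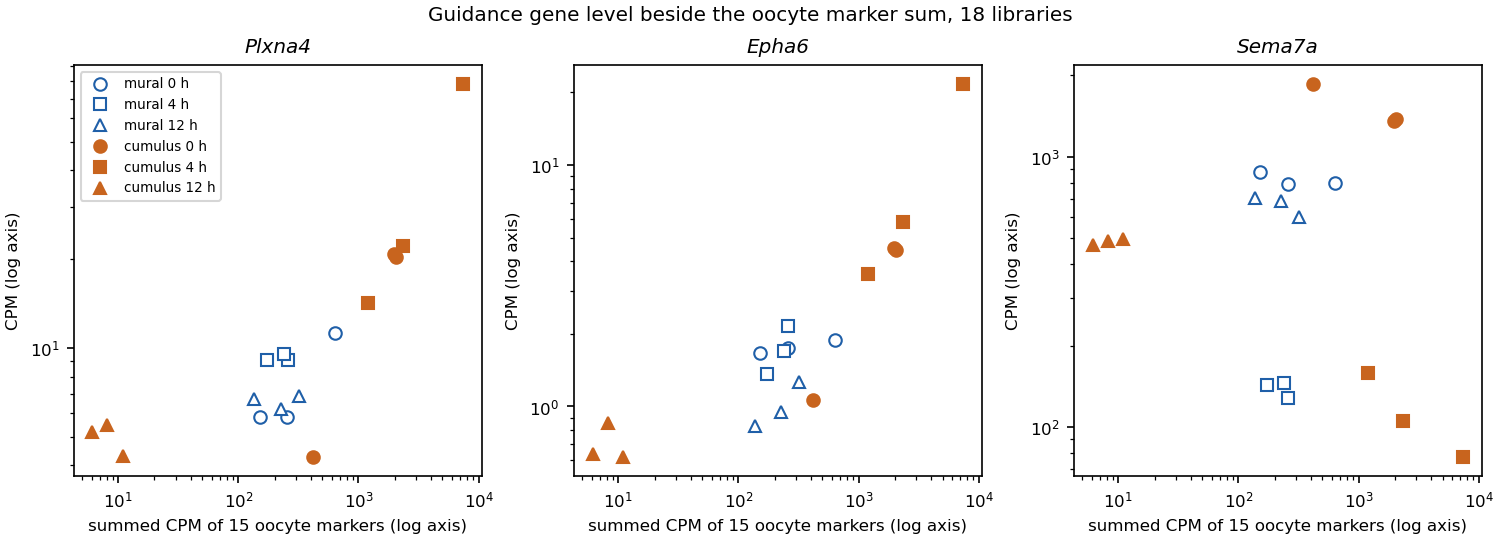
Level of Plxna4, Epha6 and Sema7a in CPM against the summed CPM of 15 oocyte markers in the 18 libraries, both on log axes, mural as open and cumulus as filled symbols. Cumulus replicate 3 of 4 h, at 7440 CPM of markers, is highest for Plxna4 (78.5 CPM) and Epha6 (21.7 CPM) and lowest for Sema7a (77.3 CPM).

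The genes that carry these signals inside the cell were followed by 2 lists. Of 28 mediators of semaphorins and plexins, 10 were higher and 9 lower in mural cells at 4 h, 11 and 8 at 12 h, and in cumulus cells 11 and 8 at 4 h and 14 and 8 at 12 h. Of all genes tested, 45.1, 40.7, 47.8 and 64.2% were called in these comparisons. The median log2 changes of the list were 0.12, 0.21, 0.43 and 0.37, beside -0.06, -0.05, 0.13 and -0.09. Mical2, a flavoprotein monooxygenase that acts on actin, rose at 4 h by 3.74 ± 0.21 in mural (adjusted p = 1.98e-10) and 4.22 ± 0.22 in cumulus cells (6.98e-11). Met, a receptor kinase that associates with class B plexins, rose at 12 h by 4.64 ± 0.42 in mural (7.89e-08) and 4.9 ± 0.55 in cumulus cells (5.67e-07). In cumulus cells Met was close to the floor at 0 h, at 0.0273, 0.16 and 0.023 CPM. Its mean at 12 h was 2.35 CPM there and 35.6 CPM in mural cells.

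Of 24 mediators of Eph receptors and ephrins, 7 were higher and 4 lower in mural cells at 4 h and 7 and 7 at 12 h. In cumulus cells 13 were higher and 5 lower at 4 h and 12 and 7 at 12 h. These counts stand beside the same shares of all genes called, 45.1, 40.7, 47.8 and 64.2%. The medians were 0.3, -0.1, 0.47 and 0.12. Pdzrn3, a ubiquitin ligase with PDZ domains, rose at 12 h by 4.42 ± 0.35 in mural (adjusted p = 1.62e-08) and 4.2 ± 0.35 in cumulus cells (1.06e-08). Rgs3, a regulator of G protein signalling that binds ephrin-B, fell by 1.66 ± 0.23 (1.07e-05) and 4.55 ± 0.26 (6.67e-11), from 300 to 12.8 CPM in cumulus cells. Sdcbp, which encodes the PDZ adaptor syntenin, rose at 4 h by 2.02 ± 0.16 (9.77e-09) and 2.05 ± 0.16 (7.68e-09).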

How the data were processed

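The authors deposited 1 table of counts, whole numbers of unique gene reads that were not normalized, with 18 columns, all of which were used. Per the labels' protocols, RNA was isolated with RNeasy kits and sequenced from stranded mRNA libraries. Per the series' design text, reads were aligned and counted in CLC Genomics Workbench, and per the submitters' processing notes the build was GRCm38. For the strand setting of the counting, nothing is given in the sources used here. With a minimum count of 10, the expression filter of edgeR left 19941 of 41325 genes. With R 4.3.3 and edgeR 4.0.16, counts were scaled by TMM and 1 robust quasi-likelihood model with 6 group means was fitted to 18 libraries. From it came 11 comparisons, each adjusted by Benjamini-Hochberg over all genes tested, with a threshold of 0.05. SE is the log2 change divided by the square root of F. The fit shares 1 spread per gene over groups. No library was a duplicate, since within groups chi-square per degree of freedom was at least 7.81.

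The guidance genes and the lists of markers and mediators, taken from textbook knowledge, were chosen with earlier results of these data known. Genes were picked for naming as the 4 largest rises and 4 largest falls in each comparison. Only called genes whose higher group had a mean of 1 CPM or more were eligible. For 12 h against 4 h and for differences between the cell types, 2 and 2 were picked. Values per library and full statistics were not printed for every such gene and comparison, so the printed values are no complete ranking. Other genes were given by counts or to complete a family. Of each pathway list some genes with large changes were named, and these were not always the genes with the largest change. Levels were compared between genes as CPM per kb of merged exons. Alternatives were DESeq2 1.42.0 (test, and its size factors in edgeR), library totals, no filter, the compared libraries alone, a replicate block, each replicate left out, and 2 cumulus libraries left out.

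Replicate numbers come from the titles, which do not say that a number marks a shared animal or day. Deviations of same-numbered libraries correlated above 0.1 in every pair for cumulus against mural cells at 4 h alone (0.2, 0.12 and 0.19). These correlations were weak, and no label says that the libraries are paired. The replicate block was fitted over all 18 libraries, so it was no paired test of the 4 h libraries. Tested on simulated data for mural cells at 4 h (18570 genes), the fit recovered 67% of genes changed by 1 log2 unit and 94% of those changed by 2, with 7 false calls. There 100 genes were changed at each size, all above about 1 CPM, and the others were equal in all groups. In the data 45.1% of genes were called in this comparison, and some guidance genes lay lower, so these rates need not hold there.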

Additional observations from a re-analysis of the deposited data

Results flagged for a closer look

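The results below are listed because the change after hCG differed between cumulus and mural cells by a test of the difference itself. At 4 h against 0 h it was more positive in cumulus cells for 8 guidance genes and more negative for 6, with 14% of all genes called. At 12 h against 0 h the counts were 22 and 8, with 40.1% of all genes called. Epha2 (1.96) and Ephb2 (1.66) rose more in cumulus cells at 4 h, while Efnb2 (-2.49) and Sema6b (-2.31) went the other way. At 12 h the largest differences toward cumulus cells were those of Sema4f (3.4) and Sema3c (2.69), and toward mural cells those of Sema6b (-2.86) and Efnb2 (-2.53). Values are log2 differences. The differences of Epha2 and Ephb2 were not called without certain single libraries. Those of Sema4f and Epha2 rest partly on 0 h levels near the floor.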

How the results depend on the processing

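A set of 125 printed combinations of a guidance gene and a comparison gave 1638 values under alternatives. Calls of guidance genes outside this set changed too. Of these, 1577 kept direction and side of the threshold, 43 lost a call, 4 gained one and 14 changed sign, in 14 combinations. Besides those given with their results (Plxna4, Epha3, Epha6, Sema3d, Sema4d, Sema5a, Sema7a, Ephb4, and Epha2 and Ephb2 at 4 h), these were values close to 0 that were never called. The difference of Sema3g at 12 h was -0.06 with DESeq2 or its size factors, -0.07 with library totals, -0.01 without the filter, -0.02 with the compared libraries alone and from -0.19 to 0.19 with one library left out. The change of Plxnd1 in mural cells at 12 h was -0.08 with library totals and from -0.01 (without mural 12 h replicate 3) to 0.29 with one library left out. Plxna4 in cumulus cells at 4 h was -0.17 without the 2 libraries that stood apart and from 0.26 to 1.72 with one library left out. With library totals Plxna4 was 1.16 (adjusted p = 0.133) and Epha3 1.17 (0.0637). With the compared libraries alone Plxna4 was 1.28 (0.27), Epha3 1.29 (0.199), Epha6 1.57 (0.195), and the differences of Epha2 and Ephb2 1.99 (0.087) and 1.68 (0.136). Without the filter Plxna4 was 1.32 (0.145) and the difference of Ephb2 1.67 (0.0598). In fits of the compared libraries alone, the lower count of cumulus cells at 4 h was 6, the higher count of cumulus against mural cells at 4 h 6, and the more positive count at 4 h 2. Library totals gave 8 higher in cumulus than mural cells at 12 h. They moved the share of higher genes among all calls from 50.6 to 29.1% in mural cells at 4 h, 53.2 to 39.9% at 12 h and 53.2 to 66.8% at 12 h against 4 h, from 52.3 to 41% and 48.7 to 38.1% in cumulus cells at 4 and 12 h, from 46.7 to 35.6% between cell types at 12 h, and from 48.3 to 69.3% for the differences at 4 h. The causes were not tested.

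Leaving out one replicate at a time, the counts of higher and lower genes ranged from 14 to 17 and 12 to 15 in mural cells at 4 h, 9 to 10 and 15 to 16 at 12 h, and 9 to 10 and 20 to 20 at 12 h against 4 h. In cumulus cells they were 22 to 29 and 8 to 12, 17 to 20 and 16 to 18, and 13 to 14 and 19 to 22. For cumulus against mural cells they were 5 to 10 and 26 to 31 at 0 h, 8 to 9 and 28 to 32 at 4 h, and 8 to 12 and 17 to 18 at 12 h. For the differences they were 4 to 12 and 6 to 9 at 4 h, and 18 to 23 and 6 to 11 at 12 h. The more positive count at 4 h was 4 without mural 4 h replicate 1 or 3 or cumulus 4 h replicate 1, and 5 without mural 4 h replicate 2. The higher count at 12 h was 8 without mural 12 h replicate 2. Where cumulus 0 h replicate 1 and 4 h replicate 3 were both left out, no count moved by more than 1.5 times.

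With the replicate block, counts were 17 higher and 15 lower in mural cells at 4 h, 11 and 17 at 12 h, 28 and 9 in cumulus cells at 4 h, and 19 and 18 at 12 h. For cumulus against mural cells at 4 h, where same-numbered libraries deviated weakly together, the block added the call of Sema6a (-0.74, adjusted p = 0.0468) and changed no other. In the other comparisons the block removed Plxna4 and Epha1 in cumulus cells at 4 h and Epha1 there at 12 h against 4 h. It added Sema3f at 4 h, Epha3 at 12 h and Sema3d at 12 h against 4 h in cumulus cells. In mural cells it added Efna4 at 4 h, Sema4b at 12 h, and Efna2 and Plxnb2 at 12 h against 4 h. Among the differences between cell types it added Ephb4 at 4 h.

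Depth limits the lowest genes: Sema4f at 0 h in both cell types, and Epha2 and Sema3f at 0 h in cumulus cells, lie near the floor of 3 counts.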

Other observations

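Other guidance families were followed by a list of netrins, slits, repulsive guidance molecules and their receptors, of which 22 of 23 genes were tested. In mural cells 11 were higher and 2 lower at 4 h and 8 and 3 at 12 h, and in cumulus cells 11 and 1, then 10 and 6. Of all genes tested, 45.1, 40.7, 47.8 and 64.2% were called in these comparisons. The slit receptor gene Robo2 rose at 4 h from 164 to 1320 CPM in mural cells (3.01 ± 0.14, adjusted p = 1.62e-11) and from 55.9 to 543 CPM in cumulus cells (3.28 ± 0.14, 8.92e-12). Its ligand gene Slit2 rose in mural cells by 2.8 ± 0.2 (2.86e-09), as did the adhesion gene Flrt3 (3.7 ± 0.33, 5.92e-08). In cumulus cells Flrt2 (2.77 ± 0.22, 1.55e-08) and the netrin receptor gene Unc5b (2.13 ± 0.27, 3.33e-06) rose at 4 h. The means moved the same way in the other cell type. Flrt2 went from 15.2 to 101 CPM and Unc5b from 5.06 to 18.6 CPM in mural cells. Slit2 went from 1.25 to 5.07 CPM and Flrt3 from 4.17 to 11.4 CPM in cumulus cells. At 12 h Flrt1 was higher in both cell types, by 3.05 ± 0.25 (1.64e-08) in mural and 4.53 ± 0.27 (1.14e-10) in cumulus cells, and mural cells gained Ntn5, from 0.093 to 4.96 CPM (5.67 ± 0.78, 1.16e-05). Unc5c (from 22.1 to 1.03 CPM) and Robo3 (from 1.57 to 0.00985 CPM) fell in cumulus cells at 12 h, where the summed level of oocyte markers went from 419 to 2050 CPM down to 6.1 to 10.9 CPM. The part of oocyte RNA in these falls was not tested.

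VEGF ligands share the neuropilins with the semaphorins. Of 8 ligand and receptor genes, 3 were higher and 3 lower in mural cells at 4 h and 2 and 3 at 12 h, and in cumulus cells 2 and 3, then 3 and 4, beside the same shares of all genes. Vegfc rose in mural cells at 4 h (3 ± 0.31, adjusted p = 3.01e-07) and in cumulus cells at 12 h (3.33 ± 0.31, 4.3e-08). Vegfa went from 156 to 547 CPM in mural cells at 12 h (1.81 ± 0.17, 8.88e-08). The receptor gene Kdr rose in cumulus cells from 0.386 to 20.6 CPM at 12 h (5.68 ± 0.43, 3.59e-09), while Flt4, the receptor gene best known from lymphatic vessels, fell from 19.7 to 0.915 CPM (-4.42 ± 0.23, 2.26e-11). Of 10 endothelial markers 2 were higher and 6 lower in cumulus cells at 12 h, and of these Cdh5 went from 4.01 to 164 CPM. The part of endothelial RNA in the change of Kdr was not tested.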
